A study of Homo sapiens with 28 samples.

Results

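Tunicamycin was compared with its solvent in LNCaP cells that carried a control siRNA. The comparison takes 8 of the 28 libraries of the series, chosen by the names of the count columns, and covers all 25369 genes counted. LNCaP is an established line from a metastasis of a human prostate cancer, grown here at passages 10 to 15. Every culture was reverse transfected with siCtrl, a non-targeting siRNA. After 2 days, 4 cultures received tunicamycin (2.5 µg/mL) and 4 received DMSO, each for 18 h; the groups are called TM siCtrl and DMSO siCtrl. The design text describes 4 independent experiments a group, so the replicate spread is that of repeated cultures of a single line. Library totals were 15105353 to 17221117 counts with DMSO and 14052883 to 17253801 with tunicamycin. Levels are CPM, counts relative to the library total after scaling by TMM factors, each change is a log2 ratio of tunicamycin over DMSO ± SE, and n = 4 in each group throughout. A gene is said to have risen or fallen where edgeR's quasi-likelihood test gave a Benjamini-Hochberg adjusted p under 0.05 over the 14314 genes with enough counts. The sources used here do not say if reads were counted by strand, so genes whose exons overlap another gene are uncertain. They are 54 of the 296 list genes named here, among them DDIT3, HSP90B1, DNAJB9, EIF2AK3, FTH1, SYVN1, PCNA, MCM7, KRT8, KRT18 and TNFRSF10B. Reads of EEF1A1, FTH1, GAPDH, TUBB, PPIA, HSPA8, HSP90AA1 and the ribosomal proteins could be split with their processed pseudogenes.

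Tunicamycin blocks the enzyme that puts the first sugar on the dolichol carrier, so new glycoproteins reach the endoplasmic reticulum (ER) without their N-glycans and fold poorly. The ER membrane proteins PERK, IRE1 and ATF6 sense the unfolded protein that builds up when the chaperone BiP is occupied. PERK phosphorylates eIF2α, which slows translation while the mRNA of ATF4 is translated better. IRE1 splices the mRNA of XBP1, and ATF6 is cut in the Golgi to free a transcription factor. Prostate luminal cells are secretory, and androgen drives the genes of several of their secreted proteases.

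The response was broad. Of the 14314 genes 4909 rose (34.3%) and 4974 fell (34.7%), 69.0% in all, and at 61.0% of genes the values of the 8 libraries did not overlap between the groups. The shares that rose or fell at least 2-fold were 8.49% and 7.27%, and 312 genes rose at least 4-fold against 188 that fell as much. At 8-fold the counts were 133 and 23, so the largest changes among tested genes were mostly rises. The filter ran over all 28 libraries, and every group other than DMSO siCtrl received tunicamycin. Genes near 0 with DMSO therefore entered more easily than genes near 0 with tunicamycin, and their folds are imprecise. How far this shaped these counts was not tested. A list whose shares that rose and fell lie near 34.3% and 34.7% does not stand apart from all genes by its counts. Small changes made up much of the rest: 4352 called genes (44.0% of those called) moved by less than 0.5 on the log2 scale. The median over all genes was 0.01 with TMM. With library totals alone the median shifted by −0.14, and 3760 genes rose and 6262 fell, so small changes depend on this choice. Replicates correlated at 0.993 to 0.995 over log2 CPM and libraries of different groups at 0.945 to 0.950.

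DMSO siCtrl replicate 4 stood apart from the other DMSO libraries at several stress genes, picked here because this library was extreme at them. It was not raised at every such gene: for ASNS, asparagine synthetase, and WARS, a tRNA synthetase, it held the lowest DMSO value. For DDIT3, the gene of the transcription factor CHOP, the DMSO libraries held 17.8, 17.5, 15.9 and 33.2 CPM, so replicate 4 held the highest value. CHAC1, a glutathione-degrading enzyme, stood at 18.1, 18.5, 20.6 and 40.3 CPM in the same order, and SESN2, a stress-induced brake on mTORC1, at 32.2, 33.5, 33 and 53.4 CPM. TRIB3, STC2 and SLC38A2 were also highest there, at 142, 171 and 363 CPM. MANF, LMAN1 and KLK2 were lowest there, at 152, 282 and 421 CPM. At each of these genes this library still lay outside the tunicamycin range, as the plot of this library shows. Without it the change of DDIT3 was 4.11 instead of 3.79, that of CHAC1 2.78 instead of 2.41 and that of SESN2 2.41 instead of 2.20. Without replicate 4 of both groups 4757 genes rose and 4645 fell.

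**Figure D1:**
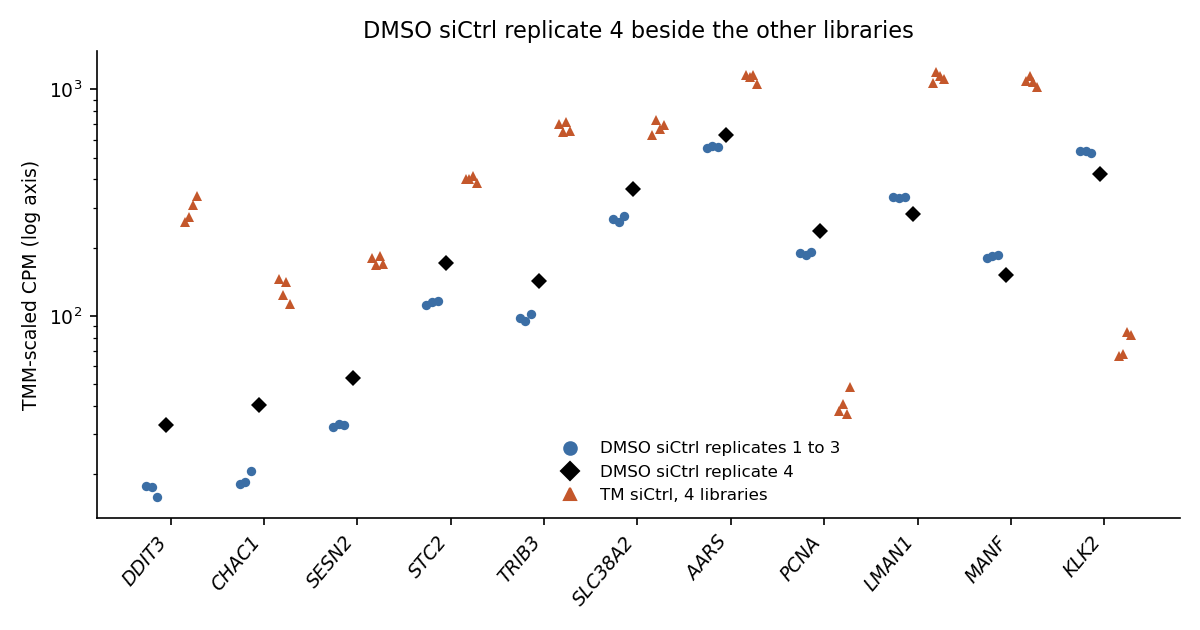
TMM-scaled CPM on a log axis for 11 genes in DMSO siCtrl replicates 1 to 3 (circles), DMSO siCtrl replicate 4 (diamonds) and the 4 TM siCtrl libraries (triangles). Replicate 4 is the highest DMSO library at DDIT3 (33.2 CPM) and the lowest at MANF (152 CPM).

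The sensors and their direct products rose in part. Of 14 tested members of this list 10 rose and 1 fell, with a median change of 0.58. ERN1, which encodes IRE1, held 21, 19.4, 18.9 and 22.1 CPM in the DMSO libraries and 67.5, 68.6, 69.8 and 69.5 CPM in the tunicamycin libraries. The lowest tunicamycin value was above the highest DMSO value by a wide margin, and the change was 1.75 ± 0.08 (adjusted p = 8.23e-21). ATF6 changed by 1.49 ± 0.06 (59.6 to 168 CPM) and EIF2AK3, the gene of PERK, by 1.56 ± 0.07 (30.2 to 89.2 CPM). XBP1, whose unspliced and spliced forms were counted together, moved much less: it held 179, 178, 191 and 197 CPM in the DMSO libraries and 282, 292, 268 and 255 CPM in the tunicamycin libraries, a change of 0.56 ± 0.04. EDEM1, which marks misfolded glycoproteins for disposal, rose by 1.83 ± 0.07. The site proteases that cut ATF6 differed, with MBTPS1 at 0.27 ± 0.07 and MBTPS2 at 0.06 ± 0.06, the second not called. CREB3L4, a relative of ATF6 found in prostate, fell (−0.32 ± 0.07), while its relatives CREB3 (1.58 ± 0.06) and CREB3L2 (0.60 ± 0.05) rose. RTCB, the ligase that joins the exons of XBP1, did not pass the test (−0.06 ± 0.05).

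Among 19 eIF2 kinases, phosphatase subunits and stress transcription factors 14 rose and 5 fell, or 3 without DMSO siCtrl replicate 1 (median 1.06). DDIT3 held 259, 273, 309 and 339 CPM in the 4 tunicamycin libraries and rose by 3.79 ± 0.17 (adjusted p = 3.3e-15). ATF4 held 539.5, 545, 614 and 723 CPM in the DMSO libraries and 1479, 1487, 1562 and 1517 CPM in the tunicamycin libraries. Its groups did not overlap, and the change was 1.32 ± 0.15. Its partner CEBPG rose by 1.63 ± 0.07 and CEBPB by 1.85 ± 0.15, whereas CEBPD, at 11.9 to 7.69 CPM, fell by 0.63 on the log2 scale. PPP1R15A, the stress-induced subunit that restores eIF2α by dephosphorylation, rose by 1.99 ± 0.10 and its constitutive relative PPP1R15B by 0.81 ± 0.05. The eIF2 kinases other than PERK went different ways: EIF2AK2 (PKR) changed by 0.28 ± 0.06, EIF2AK1 (HRI) by −0.10 ± 0.04 and EIF2AK4 (GCN2) by −0.98 ± 0.05. EIF2S1, the gene of eIF2α itself, fell (−0.43 ± 0.05). For EIF2AK1 the call was lost under 11 of the 19 alternatives.

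**Figure D2:**
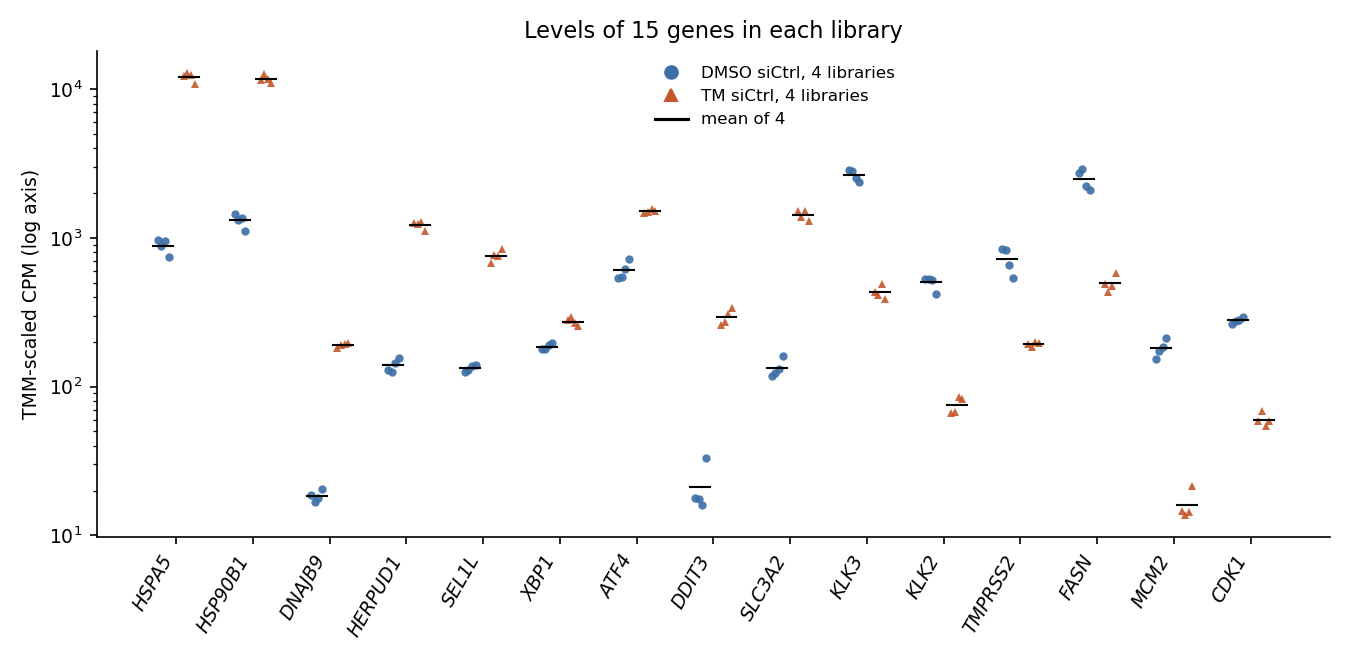
TMM-scaled CPM on a log axis for 15 genes in each of the 4 DMSO siCtrl (circles) and 4 TM siCtrl libraries (triangles), with the mean of each group as a bar. The groups do not overlap at any gene shown, from HSPA5 (log2 change 3.77) and DDIT3 (3.79) on the raised side to KLK3 (−2.61) and MCM2 (−3.51) on the lowered side.

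The chaperones of the ER lumen rose nearly as a complete set. Of 19 tested members 18 rose and 0 fell, 17 of them at least 2-fold, against 34.3% of all genes that rose. The median was 2.26. Their summed share of the transcript pool, measured per length as TPM, went from 0.498% ± 0.0274 to 2.82% ± 0.109 (SD, n = 4), a ratio of 5.66. HSPA5, the gene of BiP (hg19 chromosome 9, 127997127 to 128003666, minus strand), held 969, 882, 956 and 739.5 CPM in the DMSO libraries and 12280, 12860, 12420 and 10760 CPM in the tunicamycin libraries. Every tunicamycin value was more than 10 times every DMSO value, and the change was 3.77 ± 0.10 (adjusted p = 1.13e-20). HSP90B1 (GRP94), which folds receptors and integrins, held 1438, 1321, 1365 and 1120 CPM with DMSO and 11520, 12590, 11660 and 11030 CPM with tunicamycin, a change of 3.16 ± 0.06. By TPM, HSPA5 moved from rank 240 to rank 13 of all genes and HSP90B1 from rank 103 to rank 6.

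The helpers of BiP moved with it, though not evenly. DNAJB9, a J protein that returns IRE1 to rest, held 18.6, 16.9, 17.8 and 20.5 CPM with DMSO and 182, 190.4, 195 and 195 CPM with tunicamycin and rose by 3.37 ± 0.07. The other J proteins ranged from 2.52 ± 0.06 for DNAJB11, over 2.48 ± 0.06 for DNAJC3 and 2.26 ± 0.05 for DNAJC10, to 1.43 ± 0.07 for DNAJC25. The nucleotide exchange factors split: HYOU1 rose by 2.88 ± 0.05 (358 to 2641 CPM) and SIL1 by only 0.90 ± 0.04 (95 to 178 CPM). MANF, a secreted factor that also binds BiP, held 180.5, 183, 186 and 152 CPM with DMSO and 1083, 1144, 1073 and 1022 CPM with tunicamycin (2.62 ± 0.06). The lectin chaperones, which need a glycan to bind, rose by 1.88 ± 0.04 for CALR and 1.14 ± 0.05 for CANX. SDF2L1 rose by 2.18 ± 0.08 while its close relative SDF2 was the member that did not pass the test (0.10 ± 0.07).

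The start regions of some of these genes hold known elements. The ERSE, CCAAT and CCACG with any 9 bases between them, is read by ATF6 with NF-Y, and the ERSE-II, ATTGG and CCACG with any 1 base between them, by ATF6 and XBP1. Both strands were searched in RefSeq windows of GRCh38.p14 that reach from 250 bases before to 50 bases after each start. An ERSE was present in 27 of 35116 windows (0.0769%) and an ERSE-II in 19 (0.0541%). Matched by symbol, 11204 tested genes had a window. Of the 18 members of the ER chaperone list among them, 5 held an ERSE and 2 an ERSE-II. Of the 15 tested genes with an ERSE, 14 rose, 10 of them at least 2-fold, 0 fell and 1 was not called. The sequences below are examples, namely ER chaperones and their modifiers, an isomerase, XBP1 and the start regions shared by a pair of genes. They come from RefSeq at GRCh38.p14 coordinates, whereas gene positions given elsewhere are hg19. Each is printed 5′ to 3′ on the strand that carries the element, with 20 bases on either side and the element in capitals.
HSPA5, chr9:125241371-125241429, minus strand: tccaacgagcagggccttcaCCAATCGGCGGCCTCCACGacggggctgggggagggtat
FICD, chr12:108515103-108515161, plus strand: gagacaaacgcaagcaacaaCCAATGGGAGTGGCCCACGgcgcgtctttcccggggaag
HSP90B1, chr12:103930196-103930254, plus strand: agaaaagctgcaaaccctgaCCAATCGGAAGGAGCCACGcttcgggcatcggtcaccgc
HSP90B1, chr12:103930301-103930359, minus strand: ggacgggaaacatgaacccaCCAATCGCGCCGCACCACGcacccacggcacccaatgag
CRELD2/ALG12, chr22:49918534-49918592, minus strand: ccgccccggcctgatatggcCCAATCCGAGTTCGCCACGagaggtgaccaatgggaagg
SERP1/EIF2A, chr3:150546690-150546748, plus strand: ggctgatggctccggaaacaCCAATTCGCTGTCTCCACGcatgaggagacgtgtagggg
CALR, chr19:12938364-12938422, minus strand: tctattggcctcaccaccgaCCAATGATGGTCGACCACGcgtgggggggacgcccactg
PDIA6, chr2:10812833-10812891, minus strand: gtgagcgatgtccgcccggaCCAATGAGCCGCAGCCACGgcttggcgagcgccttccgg
XBP1, chr22:28800583-28800641, minus strand: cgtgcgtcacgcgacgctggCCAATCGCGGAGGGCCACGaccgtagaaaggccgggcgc

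The element began at −66 from the start in HSPA5 and at −194 and −89 in HSP90B1. The genes that hold it covered a wide range of change. FICD, which modifies BiP with AMP, rose by 3.50 ± 0.09 and XBP1, with the same element at −52, by 0.56 ± 0.04. CRELD2 and ALG12 are divergent genes that share 1 copy, and they rose by 3.09 ± 0.06 and 0.97 ± 0.06. SERP1, which steadies the translocon, and EIF2A, a translation initiation factor, share another copy and rose by 1.88 ± 0.05 and 0.43 ± 0.05. TRIM5, an antiviral gene, also holds the element and rose by 1.39 ± 0.05. ZNF17 holds it too and did not pass the test (0.04 ± 0.11).

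Genes with an ERSE-II were more mixed. Of 14 tested genes with this element 9 rose, 4 of them at least 2-fold, 4 fell and 1 was not called. The 4 were the ER genes HERPUD1, HYOU1, SDF2L1 and NUCB1, shown here in that order with the shared copy of RUVBL2 and GYS1, which fell.
HERPUD1, chr16:56932005-56932055, plus strand: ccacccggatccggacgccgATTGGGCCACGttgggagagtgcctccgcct
HYOU1, chr11:119057360-119057410, plus strand: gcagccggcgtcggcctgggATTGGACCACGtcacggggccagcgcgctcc
HYOU1, chr11:119057254-119057304, plus strand: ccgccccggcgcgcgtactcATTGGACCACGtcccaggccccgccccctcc
SDF2L1, chr22:21642094-21642144, minus strand: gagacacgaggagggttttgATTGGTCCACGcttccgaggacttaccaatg
NUCB1, chr19:48900223-48900273, minus strand: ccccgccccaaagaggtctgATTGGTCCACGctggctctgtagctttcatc
RUVBL2/GYS1, chr19:48993363-48993413, plus strand: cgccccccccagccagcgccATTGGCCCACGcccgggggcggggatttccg

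HERPUD1, a membrane protein of the disposal complex, rose by 3.14 ± 0.07 and NUCB1, a calcium-binding Golgi protein, by 1.40 ± 0.05. RUVBL2, a helicase of chromatin remodelling complexes, changed by −0.79 ± 0.05 and GYS1, the muscle glycogen synthase, by −0.56 ± 0.07. A match is a description of the letters and was not tested as a binding site.

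**Figure D3:**
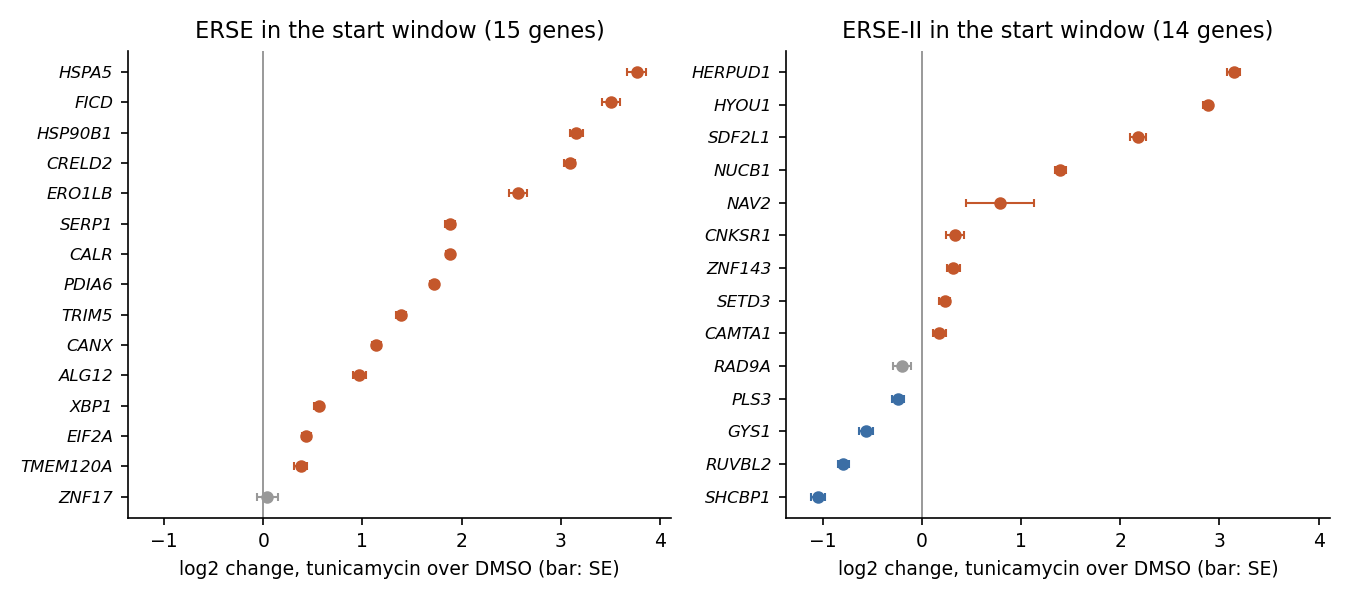
Log2 change with its SE for the tested genes whose start window holds an ERSE (left, 15 genes) or an ERSE-II (right, 14 genes); red points rose, blue points fell and grey points were not called. All ERSE genes lie above 0, up to 3.77 for HSPA5, whereas the ERSE-II genes run from −1.05 for SHCBP1 to 3.14 for HERPUD1.

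Shorter elements were common and separated the groups less. TGACGTG, found in sites of XBP1 and ATF6, was present in the windows of 3.28% of tested genes, of 5.53% of those that rose at least 2-fold and of 2.86% of those that fell as much. It was also present in 4.55% of genes that rose less than 2-fold and 4.10% of those that rose at least 4-fold. It is held by 1.97% of all windows, and a copy overlaps an ERSE-II of HYOU1. Shares of all windows count each window, whereas shares of genes count a gene once over all its windows. Among ER to Golgi transport genes 10 of 41 held it. TGATGNAAT, the composite site of ATF4 and CHOP, was held by 0.991% of all windows. It was present in 1.92% of genes that rose at least 2-fold, 0.622% of those that fell as much and 0.667% of those not called. The copies in 3 genes that rose are shown, with the site in capitals.
KLHDC7B, chr22:50545727-50545775, minus strand: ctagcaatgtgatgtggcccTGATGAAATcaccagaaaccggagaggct
FGF21, chr19:48755449-48755497, minus strand: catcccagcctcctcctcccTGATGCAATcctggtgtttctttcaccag
GARS, chr7:30594824-30594872, minus strand: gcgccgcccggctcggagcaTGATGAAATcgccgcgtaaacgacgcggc

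KLHDC7B rose from a level near 0 (0.0678 to 10 CPM), and its log2 change of 6.97 ± 0.41 was 8.46 without DMSO siCtrl replicate 4. FGF21, a stress hormone, rose by 2.83 ± 0.32 and GARS, the glycyl-tRNA synthetase, by 1.38 ± 0.10.

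Oxidative folding enzymes rose in 25 of 30 cases and fell in 4 (median 1.06), and their TPM share went from 0.499% ± 0.0114 to 1.65% ± 0.117. AGR2, an isomerase of mucus-secreting epithelia, changed most. It held 101, 95.6, 90.7 and 59.7 CPM in the DMSO libraries and 2777, 2775, 2284 and 1506 CPM in the tunicamycin libraries, a change of 4.75 ± 0.29 (adjusted p = 1.07e-12). The groups were far apart, and replicate 4 held the lowest value of each. PDIA4 rose by 2.40 ± 0.08 (303 to 1596 CPM), PDIA3, the partner of the lectin chaperones, by 1.85 ± 0.05, PDIA6 by 1.72 ± 0.04 and P4HB, the classical isomerase, by 1.45 ± 0.04. The oxidases that recharge them also rose, ERO1LB by 2.57 ± 0.09 and ERO1L by 1.06 ± 0.11. The transmembrane isomerases moved little: TMX2, TMX3 and TMX4 rose by 0.46, 0.48 and 0.40, and TMX1 changed by −0.14 ± 0.06, a call lost under 9 alternatives. QSOX1 rose (1.29 ± 0.07) while its relative QSOX2 fell (−0.70 ± 0.06). FKBP7 also fell (−0.90 ± 0.16). The number that fell was 2 with DESeq2, with no filter on low counts, and without DMSO siCtrl replicate 2 or 3 or TM siCtrl replicate 3 or 4.

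Genes of ER-associated degradation, which disposes of misfolded protein, rose in 32 of 38 cases and fell in 2 (median 0.62). HERPUD1 (hg19 chromosome 16, 56966002 to 56977793, plus strand) held 129.9, 125, 145 and 155 CPM with DMSO and 1262, 1246, 1281 and 1116 CPM with tunicamycin, and the groups did not overlap (3.14 ± 0.07, adjusted p = 5.63e-29). SEL1L, the adaptor of the ubiquitin ligase SYVN1, held 126, 130, 137 and 140.1 CPM with DMSO and 678, 766, 760.2 and 839 CPM with tunicamycin and rose by 2.52 ± 0.09, and SYVN1 itself by 1.97 ± 0.05. VIMP, a selenoprotein that recruits the extraction motor, rose by 2.63 ± 0.06. The derlins were unequal, with DERL3 at 2.34 ± 0.19 (5.01 to 25.5 CPM), DERL2 at 1.82 ± 0.06 and DERL1 at 0.84 ± 0.05. VCP, the extraction motor in the cytosol, rose by 0.48 ± 0.04, and its cofactors NPLOC4 (−0.04 ± 0.04) and UFD1L (−0.04 ± 0.05) did not pass the test. UBE2G2, a conjugating enzyme of this pathway, fell (−0.29 ± 0.05). Proteasome genes did not follow. Of 37 subunits and factors 3 rose and 24 fell (median −0.19), among them PSMD2 (−0.60 ± 0.04) and PSMA4 (−0.60 ± 0.04). The members that rose were PSME4, an activator cap (1.07 ± 0.05), PSMD8 (0.54 ± 0.04) and PSMC4 (0.12 ± 0.04), the last with −0.02 under library totals alone and with its call also lost without DMSO siCtrl replicate 1 or TM siCtrl replicate 3.

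Genes of entry into the ER and of export from it mostly rose. Of 26 genes of signal recognition, the translocon and signal peptidase 24 rose and 1 fell (median 1.19). SEC61A1, the pore subunit, held 558, 564, 596 and 597 CPM with DMSO and 1936, 1883, 1959 and 1882 CPM with tunicamycin, without overlap (1.73 ± 0.04). Its relative SEC61A2 rose by 0.61 ± 0.09 (11.9 to 18.2 CPM). TRAM1 rose by 2.37 ± 0.06 against 0.43 ± 0.08 for TRAM2, and SEC11C by 2.05 ± 0.05 against 0.34 ± 0.04 for SEC11A. The receptor subunits SRPR (1.65 ± 0.07) and SRPRB (1.62 ± 0.04) both rose, but in the signal recognition particle SRP14 did not pass the test (0.02 ± 0.04) and SRP9 fell (−0.27 ± 0.05). Of 48 genes of ER to Golgi transport 43 rose and 1 fell (median 1.14), and their TPM share went from 0.612% ± 0.0158 to 1.28% ± 0.0242. The SEC24 cargo adaptors of COPII vesicles differed within the family. SEC24D held 73.1, 72.7, 80.5 and 56.3 CPM with DMSO and 368, 376, 384 and 368 CPM with tunicamycin (2.41 ± 0.06), SEC24A rose by 0.78 ± 0.06 and SEC24C by 0.40 ± 0.04, and SEC24B did not pass the test (−0.03 ± 0.05). KDELR3, a retrieval receptor for escaped chaperones, rose by 2.03 ± 0.10 from a low level (5.47 to 22.3 CPM), KDELR2 by 1.43 ± 0.04 and KDELR1 by 0.95 ± 0.05. LMAN1 and MCFD2, which carry glycoproteins together, rose by 1.81 ± 0.05 and 1.97 ± 0.09.

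The glycan pathway, which holds the target of the drug, rose in 33 of 48 genes and fell in 7 (median 0.76). DPAGT1, the enzyme that tunicamycin inhibits (hg19 chromosome 11, 118967213 to 118972785, minus strand), held 44.4, 50.5, 48.8 and 46.2 CPM in the DMSO libraries and 76.6, 78.2, 88.3 and 74.4 CPM in the tunicamycin libraries. The ranges did not overlap, and the change was 0.74 ± 0.06 (adjusted p = 2.44e-14). MFSD2A, a lipid transporter through which tunicamycin can enter cells, rose by 0.74 ± 0.16 from 4.3 to 7.19 CPM. GFPT1, which starts hexosamine synthesis, held 155, 135, 138 and 111 CPM with DMSO and 809, 893, 846 and 798 CPM with tunicamycin (2.63 ± 0.09). PGM3, later in that route, rose by 1.56 ± 0.05, but the steps on either side of it fell, GNPNAT1 by 0.28 and UAP1 by 0.45 on the log2 scale. The oligosaccharyltransferase rose in each subunit named here, with MAGT1 at 1.86 ± 0.05, OSTC at 1.70 ± 0.05, RPN1 at 1.46 ± 0.04, STT3A at 1.44 ± 0.05, STT3B at 1.30 ± 0.06 and DDOST at 1.20 ± 0.04. UGGT1, the sensor that adds glucose back to misfolded glycoproteins, rose by 1.17 ± 0.05. Of the late glucosyltransferases ALG6 (−0.26 ± 0.06), ALG10 (−0.67 ± 0.13) and ALG10B (−0.42 ± 0.06) fell and ALG8 did not pass the test (−0.10 ± 0.06). With library totals alone 13 members fell instead of 7.

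**Figure D4:**
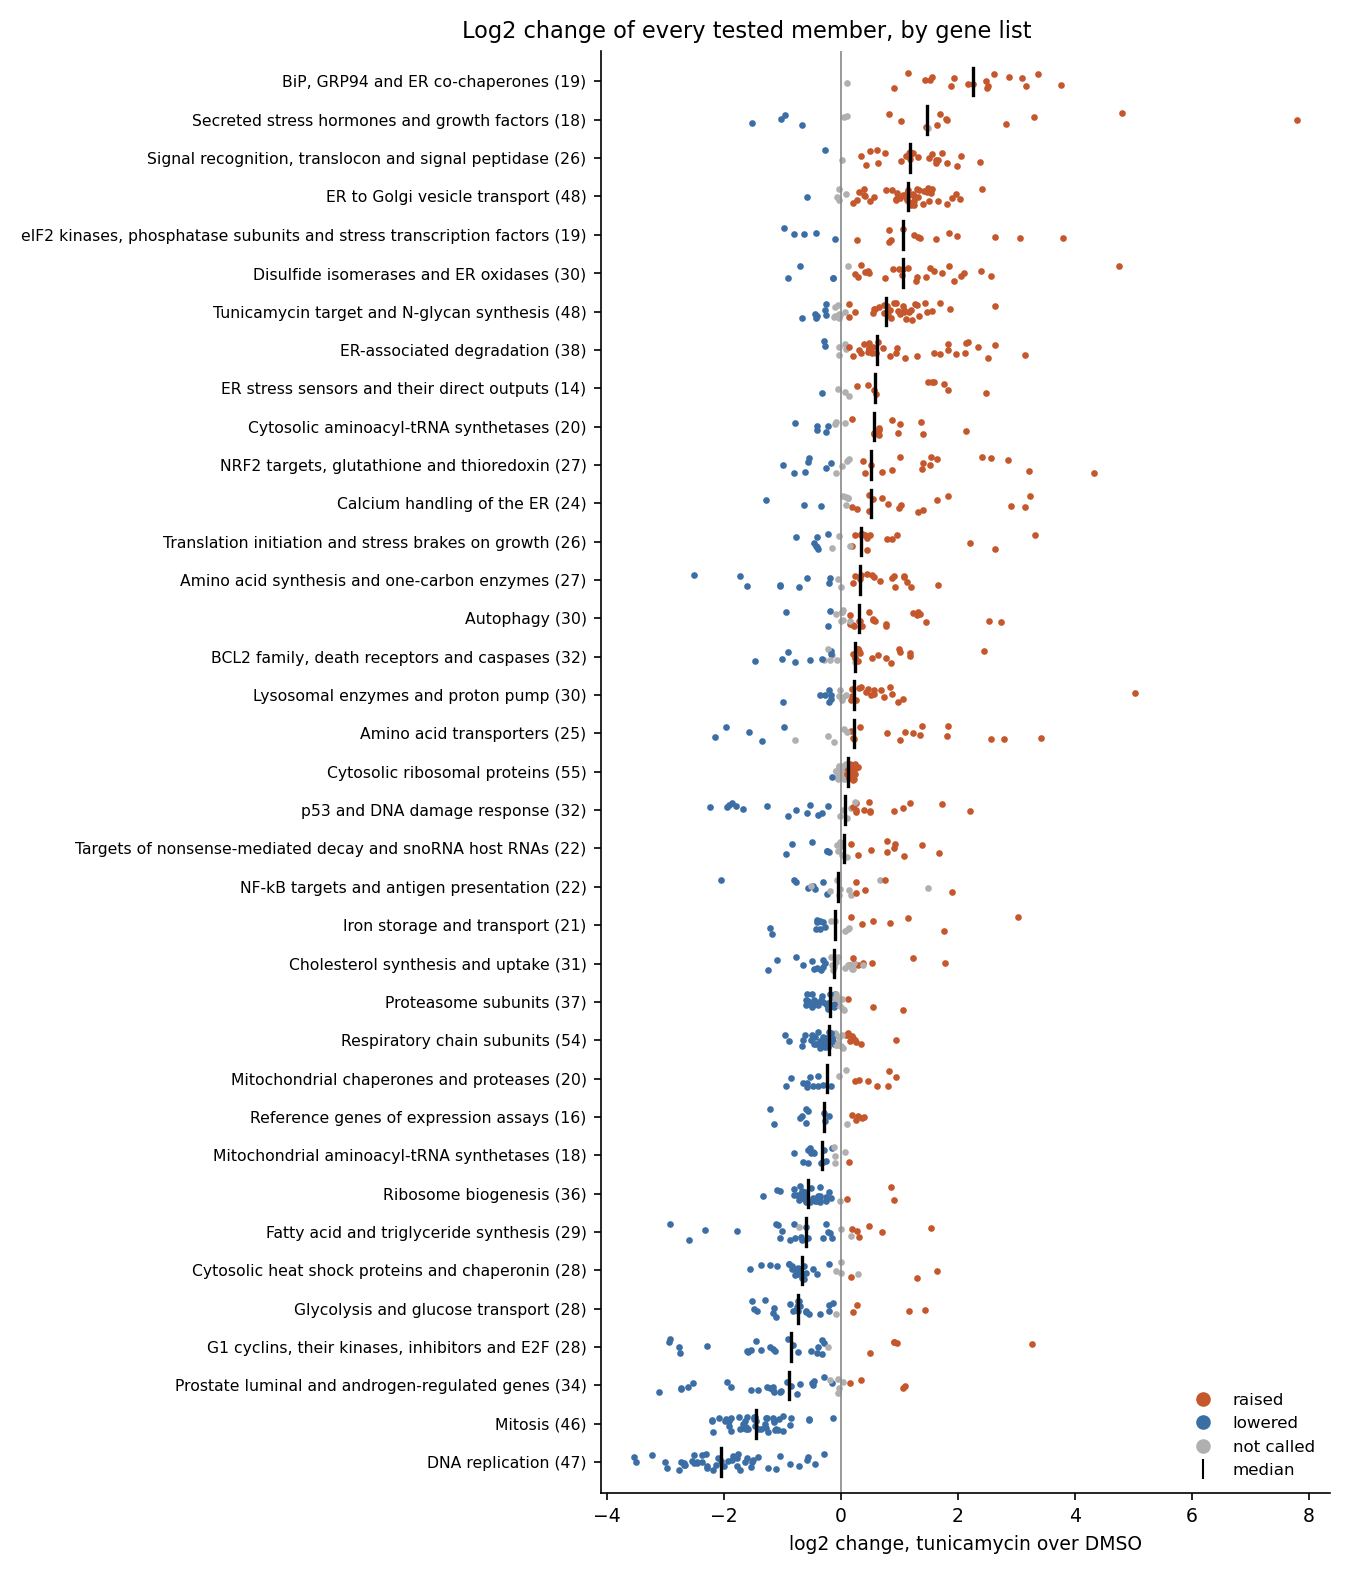
Log2 change of every tested member of the lists with at least 14 tested members, ordered by median (black bar), with the number tested in brackets; red points rose, blue points fell and grey points were not called. The list of BiP, GRP94 and ER co-chaperones has the highest median (2.26) and DNA replication the lowest (−2.06).

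Genes of ER calcium handling, autophagy and lysosomes mostly rose. Of 24 genes of ER calcium handling 16 rose and 3 fell (median 0.51). NUCB2, the precursor of nesfatin, held 133, 118, 119 and 78 CPM with DMSO and 1048, 1160, 1088 and 922 CPM with tunicamycin (3.24 ± 0.13), ATP2A2, the main ER calcium pump, rose by 1.32 ± 0.04 and ITPR1, a release channel, by 1.83 ± 0.11, whereas ITPR3 fell (−0.64 ± 0.07). Autophagy genes rose in 20 of 30 cases and fell in 3, or in 1 without DMSO siCtrl replicate 2 (median 0.31). MAP1LC3B, the membrane marker of autophagosomes, held 33.5, 37.3, 34.3 and 34.5 CPM with DMSO and 202, 212, 202 and 194 CPM with tunicamycin (2.54 ± 0.12), WIPI1 rose by 2.74 ± 0.07, and FAM134B, a receptor for ER turnover, by 0.77 ± 0.09. TFEB, the regulator of lysosome genes, fell (−0.94 ± 0.14). Lysosomal genes rose in 18 of 30 and fell in 7 (median 0.22), led by LAMP3 (5.03 ± 0.25, 0.448 to 14.7 CPM). Of 7 transcripts known to be cut by IRE1, 4 fell, among them BLOC1S1 (−0.89 ± 0.10), PER1 (−1.09 ± 0.12) and SCARA3 (−1.38 ± 0.28). HGSNAT rose (0.56 ± 0.05), and COL6A1 (−0.15 ± 0.15) and SPARC (−0.13 ± 0.56) did not pass the test.

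Amino acid genes moved both ways. Of 27 genes of amino acid synthesis and one-carbon metabolism 16 rose and 9 fell (median 0.32). ASNS, asparagine synthetase, held 243, 245, 256 and 234 CPM in the DMSO libraries and 495, 538, 516 and 508 CPM in the tunicamycin libraries. The groups did not overlap (1.07 ± 0.09). In one-carbon metabolism the mitochondrial enzymes SHMT2 (0.93 ± 0.05), MTHFD2 (1.07 ± 0.07) and MTHFD1L (0.57 ± 0.07) rose, and the cytosolic enzymes SHMT1 (−1.73 ± 0.08), MTHFD1 (−1.60 ± 0.06) and TYMS (−2.51 ± 0.08) fell. TYMS also belongs to DNA replication. In proline synthesis PYCR1 rose (0.53 ± 0.05) and ALDH18A1 (−0.21 ± 0.05) and PYCRL (−0.71 ± 0.08) fell. Of 25 amino acid transporters 15 rose and 5 fell (median 0.22), and their TPM share went from 0.0854% ± 0.00592 to 0.259% ± 0.00648. SLC3A2, the heavy chain of several exchangers, held 118, 124, 132 and 160.1 CPM in the DMSO libraries and 1521, 1373, 1515 and 1294 CPM in the tunicamycin libraries. Its rise of 3.42 ± 0.10 (adjusted p = 8.06e-20) was larger than that of its light chains SLC7A11 (2.57 ± 0.19) and SLC7A5 (1.82 ± 0.13), a difference between genes that was not tested. The taurine carrier SLC6A6 (−2.16 ± 0.14) and the glutamate carriers SLC1A3 (−1.97 ± 0.31) and SLC1A1 (−0.97 ± 0.16) fell.

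The aminoacyl-tRNA synthetases split by compartment. In the cytosol 12 of 20 rose and 5 fell (median 0.56), while in mitochondria 1 of 18 rose and 13 fell (median −0.33). WARS, the tryptophanyl enzyme, held 161, 159, 166 and 153 CPM with DMSO and 670.2, 689.8, 714 and 735 CPM with tunicamycin (2.14 ± 0.05), SARS rose by 1.40 ± 0.06 and CARS by 1.01 ± 0.07. FARSB (−0.80 ± 0.06) and FARSA (−0.22 ± 0.05), the subunits of the phenylalanyl enzyme, fell, as did QARS (−0.26 ± 0.05), RARS (−0.41 ± 0.05) and VARS (−0.40 ± 0.08). In mitochondria LARS2 fell most (−0.81 ± 0.05). EARS2 was the member that rose, by 0.14 ± 0.04, a call lost with library totals alone. Of 26 genes of translation initiation and stress brakes on growth 16 rose and 7 fell (median 0.34). FAM129A (NIBAN1), a stress-induced gene, held 19.3, 22.2, 15 and 18.8 CPM with DMSO and 178, 201, 190.2 and 178 CPM with tunicamycin (3.31 ± 0.19), and the mTORC1 inhibitors SESN2 and DDIT4 rose by 2.20 ± 0.14 and 0.78 ± 0.21. SESN1 (−0.78 ± 0.07) and SESN3 (−0.46 ± 0.12), relatives of SESN2, fell.

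Genes of secreted stress signals rose in 11 of 18 tested cases and fell in 4 (median 1.47). GDF15, a hormone that acts on appetite, held 770.1, 959, 634 and 726 CPM in the DMSO libraries and 2487, 2092, 2031 and 1863 CPM in the tunicamycin libraries, and the groups did not overlap (1.46 ± 0.13). VEGFA, the angiogenic factor, rose by 1.82 ± 0.11 (136 to 480.2 CPM) while VEGFB fell (−0.96 ± 0.12), and STC2 rose by 1.64 ± 0.14 while STC1 fell (−1.53 ± 0.28). HBEGF, a ligand of the EGF receptor, rose by 3.30 ± 0.14 (3.22 to 31.8 CPM). LCN2 rose from 0.0993 to 24.1 CPM (7.79 ± 0.38, and 8.53 without DMSO siCtrl replicate 2), so its fold is imprecise.

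Redox genes moved both ways. Of 27 NRF2 targets and glutathione and thioredoxin genes 16 rose and 7 fell (median 0.52). TXNRD1, thioredoxin reductase, held 428, 421, 417 and 443 CPM with DMSO and 1197, 1230, 1197 and 1267 CPM with tunicamycin (1.52 ± 0.06). HMOX1, heme oxygenase, rose by 1.64 ± 0.13 and GCLM, which regulates glutathione synthesis, by 1.40 ± 0.07. PRDX1 (613 to 307 CPM), GSR (−0.81 ± 0.04) and TXN (−0.55 ± 0.05), the peroxiredoxin, glutathione reductase and thioredoxin itself, fell. Of 21 iron genes 7 rose and 9 fell (median −0.11), shares not far from those of all genes. FTH1, the heavy chain of ferritin, held 1132, 1242, 1128 and 1313 CPM in the DMSO libraries and 4505, 4067, 3860 and 3835 CPM in the tunicamycin libraries, all above the DMSO range (1.76 ± 0.10). FTL, the light chain, did not pass the test (−0.11 ± 0.09), and TFRC, the transferrin receptor, fell from 436 to 188 CPM (−1.21 ± 0.13).

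Death and survival genes moved both ways. Of 32 genes 18 rose and 8 fell (median 0.24). TNFRSF10B, the death receptor DR5, held 164, 157, 161 and 149 CPM in the DMSO libraries and 382, 362, 367 and 318 CPM in the tunicamycin libraries, without overlap (1.18 ± 0.08), while TNFRSF10A, the receptor DR4, fell (−0.33 ± 0.07). CASP4 rose by 1.19 ± 0.08 and PMAIP1, the BH3 protein NOXA, by 0.63 ± 0.13. BCL2L11, the BH3 protein BIM, changed by −0.17 ± 0.06 (adjusted p = 0.0151), and the call was lost without TM siCtrl replicate 3, without TM siCtrl replicate 4 and without replicate 4 of both groups. BBC3 (0.24 ± 0.12) and BCL2 (−0.29 ± 0.15) did not pass the test. The inhibitors of apoptosis BIRC2 (1.02 ± 0.06) and XIAP (0.98 ± 0.05) rose, and BOK (−1.02 ± 0.11) and BID (−0.90 ± 0.09) fell. Of 32 genes of the p53 and DNA damage response 13 rose and 14 fell, against 34.3% and 34.7% of all genes. Their median of 0.07 became −0.07 with library totals alone. GADD45A rose by 1.73 ± 0.11 and CDKN1A by 0.91 ± 0.17, while BRCA1 (−1.87 ± 0.11) fell. MDM2 changed by 0.25 ± 0.11 (adjusted p = 0.0429), a call lost under 9 alternatives.

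Among 34 tested genes of prostate identity and androgen response 25 were lower with tunicamycin and 4 higher, where 34.7% and 34.3% of all genes fell and rose. The median was −0.90, and the TPM share went from 0.951% ± 0.0529 to 0.525% ± 0.0164. KLK3, the gene of prostate-specific antigen (hg19 chromosome 19, 51358171 to 51364020, plus strand), held 2842, 2820, 2513 and 2369 CPM in the DMSO libraries and 434, 411, 492 and 389 CPM in the tunicamycin libraries. The highest tunicamycin value was below the lowest DMSO value several times over (−2.61 ± 0.25, adjusted p = 3.23e-09). By TPM it moved from rank 42 to rank 274. TMPRSS2, a membrane protease, held 846, 832, 659 and 535 CPM with DMSO and 193, 185, 200.5 and 198 CPM with tunicamycin (−1.89 ± 0.13). KLK2 (−2.74 ± 0.14), FKBP5 (−1.95 ± 0.07) and ACPP (−1.55 ± 0.29) also fell. Of the luminal transcription factors HOXB13 fell (−1.16 ± 0.10) and FOXA1 did not pass the test (−0.04 ± 0.05). The luminal keratins KRT8 (1.09 ± 0.05) and KRT18 (1.07 ± 0.05) rose, as did STEAP2 (0.34 ± 0.05) and FOLH1 (0.16 ± 0.04), the gene of prostate-specific membrane antigen, whose call was lost with library totals alone. In these bulk libraries fewer cells of a kind and less RNA per cell cannot be told apart.

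**Figure D5:**
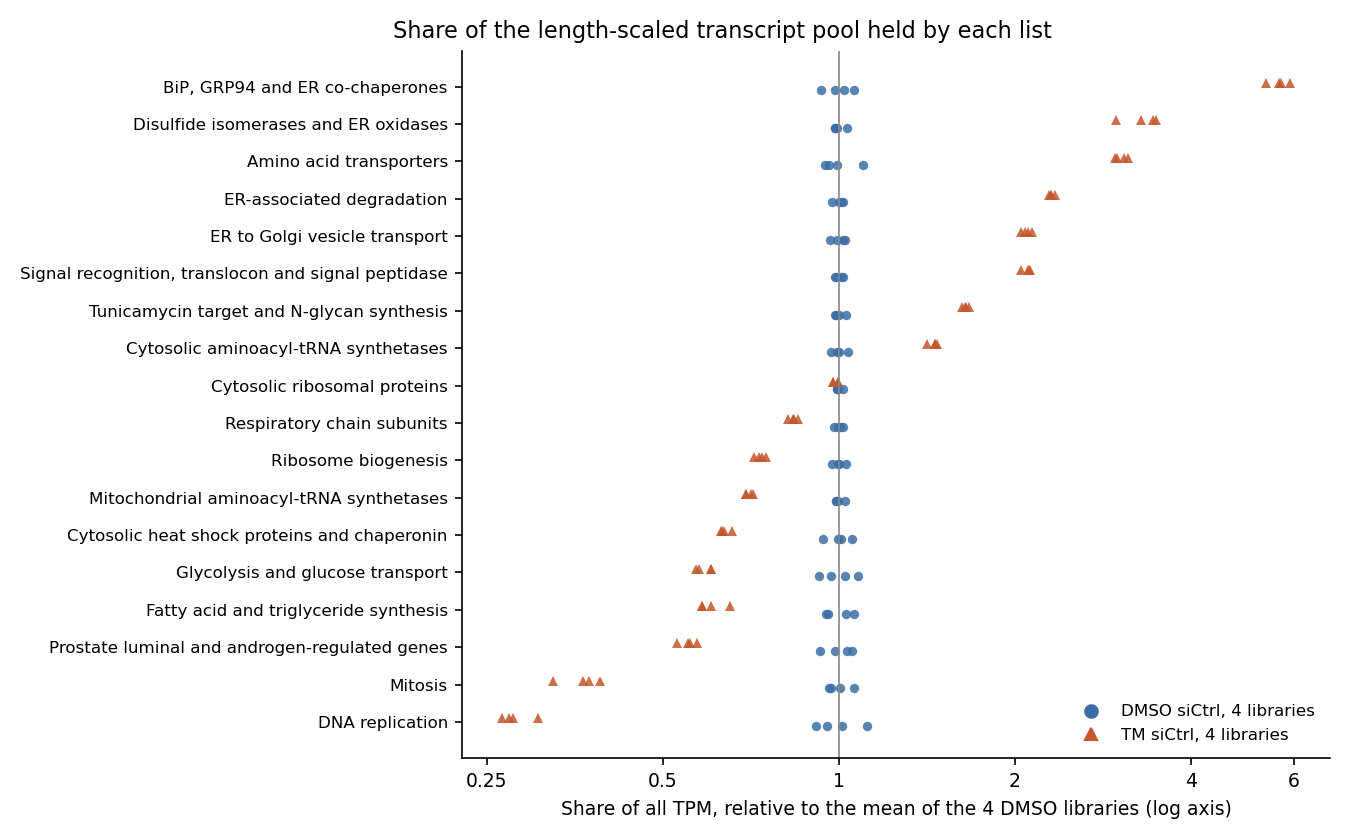
Share of all TPM held by 18 lists in each of the 4 DMSO siCtrl (circles) and 4 TM siCtrl libraries (triangles), each divided by the mean of the DMSO libraries, on a log axis. The chaperone list lies at a ratio of 5.66 and the disulfide isomerases at 3.3, cytosolic ribosomal proteins overlap with DMSO at 0.988, and DNA replication lies at 0.281.

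Cell cycle genes fell as complete lists. All 47 tested DNA replication genes and all 46 tested mitosis genes fell, with medians of −2.06 and −1.46, and 0 rose in either list. MCM2, a subunit of the replicative helicase (hg19 chromosome 3, 127317200 to 127341278, plus strand), held 154, 175, 185 and 214 CPM in the DMSO libraries and 14.5, 13.7, 14.4 and 21.4 CPM in the tunicamycin libraries. All tunicamycin values lay far below the DMSO range, and replicate 4 was the highest library of both groups (−3.51 ± 0.19, adjusted p = 9.45e-14). The other helicase subunits fell as well, by 3.23 for MCM5 and 2.98 for MCM4 on the log2 scale and with −2.69 ± 0.11 for MCM6, −2.52 ± 0.16 for MCM3 and −2.46 ± 0.07 for MCM7. PCNA, the sliding clamp, fell from 201 to 41.1 CPM (−2.29 ± 0.14) and RRM2, the regulated subunit of ribonucleotide reductase, from 218 to 32.5 CPM (−2.75 ± 0.14). POLE, the large catalytic subunit of a replicative polymerase, had the smallest fall of the list (−0.29 ± 0.07), while its partner POLE2 fell by 2.47. CDC6 (−0.87 ± 0.07) and CDT1 (−2.55 ± 0.15), which load the helicase together, both fell. The smallest fall in the mitosis list was that of BUB3, a checkpoint protein (−0.14 ± 0.05).

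The difference between the medians of the replication and mitosis lists was not tested. CDK1, the mitotic kinase, held 263, 278, 279 and 294 CPM with DMSO and 58.8, 68.2, 54.5 and 58.6 CPM with tunicamycin (−2.21 ± 0.06), and CCNA2, cyclin A, fell from 78.2 to 16.9 CPM (−2.20 ± 0.08). CCNB1 (−1.07 ± 0.12), PLK1 (−1.06 ± 0.10) and CDC20 (−0.88 ± 0.15), which drive entry into and exit from mitosis, also fell. MKI67, the proliferation marker, went from 159.9 to 58.5 CPM (−1.45 ± 0.07). In G1 22 of 28 genes fell and 5 rose (median −0.86). The activating factor E2F1 fell from 60.3 to 8.79 CPM (−2.77 ± 0.13), CDK2 from 90.5 to 18.4 CPM (−2.29 ± 0.10) and MYC from 319 to 142 CPM (−1.17 ± 0.11). CCND1, cyclin D1, held 307, 318, 289 and 265 CPM in the DMSO libraries and 180.5, 190.1, 167 and 167 CPM in the tunicamycin libraries, with no overlap (−0.74 ± 0.06). The members that rose were the inhibitors CDKN1A (0.91 ± 0.17), CDKN1B (0.96 ± 0.05) and CDKN2B (3.26 ± 0.20), the pocket protein RBL2 (0.49 ± 0.06) and the kinase CDK6 (0.91 ± 0.17), the last from 2.6 to 4.89 CPM.

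Among lipid genes, those of fatty acid and triglyceride synthesis mostly fell. Of 29 genes 20 fell and 6 rose (median −0.60), the latter count being 3 with library totals alone. FASN, fatty acid synthase (hg19 chromosome 17, 80036214 to 80056106, minus strand), held 2732, 2895, 2240 and 2093 CPM in the DMSO libraries and 493, 435, 472 and 584 CPM in the tunicamycin libraries. All tunicamycin values lay below all DMSO values, and the change was −2.33 ± 0.14 (adjusted p = 4.04e-13). Its upstream and downstream enzymes ACLY (−0.87 ± 0.06), ACACA (−0.60 ± 0.05) and SCD (−0.68 ± 0.10) fell too, and DGAT2, which makes triglycerides, fell from 30.2 to 3.98 CPM (−2.92 ± 0.15). SREBF1, their regulator, fell (−0.81 ± 0.09). ME1, which supplies NADPH, rose (1.53 ± 0.07). Of 31 genes of the cholesterol branch 7 rose and 11 fell (median −0.11), against 34.3% and 34.7% of all genes. HMGCS1, an early enzyme, did not pass the test (0.22 ± 0.11). SC5D, a late enzyme, rose by 1.78 ± 0.05 and INSIG1, which holds SREBP in the ER, fell (−1.10 ± 0.15). SREBF2 changed by 0.13 ± 0.06 (adjusted p = 0.0484), with −0.01 under library totals alone and the call lost without any of DMSO siCtrl replicates 1, 3 and 4 and TM siCtrl replicates 1 and 4. With library totals alone 17 genes of the branch fell.

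Glycolysis fell in 23 of 28 genes and rose in 4 (median −0.73), and its TPM share went from 1.95% ± 0.128 to 1.15% ± 0.034. PKM, pyruvate kinase, held 1941, 2134, 1895 and 1799 CPM in the DMSO libraries and 936, 912, 874 and 881 CPM in the tunicamycin libraries, and the groups did not overlap (−1.11 ± 0.06). LDHA (−0.76 ± 0.10), ENO2 (−1.49 ± 0.16) and PFKFB4 (−1.52 ± 0.19) also fell. GAPDH fell from 5443 to 3588 CPM (−0.60 ± 0.05). PCK2, a mitochondrial enzyme that runs toward glucose, rose (1.44 ± 0.17).

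Genes of the cytosolic folding machinery mostly went the other way from those of the ER. Of 28 heat shock and chaperonin genes 21 fell and 3 rose (median −0.66). HSP90AA1, the inducible cytosolic HSP90, held 1819, 1841, 1930 and 1770 CPM in the DMSO libraries and 635, 714, 719.7 and 789 CPM in the tunicamycin libraries. The ranges did not overlap (−1.36 ± 0.08), and its paralog in the ER, HSP90B1, rose by 3.16. HSP90AB1 (−0.74 ± 0.05) and HSPH1 (−1.55 ± 0.16) fell, and HSPA8 (0.01 ± 0.12) and HSPB1 (0.00 ± 0.20) did not pass the test. Each of the 8 chaperonin subunits fell, from −0.47 for CCT4 to −1.09 for CCT6A. HSPB8 (1.64 ± 0.15) and DNAJB4 (1.30 ± 0.15) rose.

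Genes of mitochondrial chaperones moved both ways. Of 20 chaperones, import factors and proteases 7 rose and 11 fell (median −0.24), where 34.3% and 34.7% of all genes rose and fell. HSPA9, mortalin, rose from 571 to 1093 CPM (0.94 ± 0.05) and the protease LONP1 by 0.82 ± 0.06. HSPD1 rose (0.46 ± 0.06) while HSPE1, its lid and divergent neighbour, fell (−0.85 ± 0.05). Of 54 respiratory chain subunits 34 fell and 10 rose (median −0.20). With library totals alone 3 rose. The TPM share went from 2.3% ± 0.0341 to 1.93% ± 0.0312. COX7A2L, which helps assemble supercomplexes, rose by 0.94 ± 0.04.

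Ribosome genes parted into structure and assembly. Of 55 cytosolic ribosomal proteins 30 rose and 1 fell, with a median of 0.12. This direction rests on the scaling, since with library totals alone 5 rose, 17 fell and the median was −0.02. Their TPM share went from 17.3% ± 0.208 to 17.1% ± 0.198, and the ranges overlapped. Of 36 ribosome biogenesis genes 32 fell and 3 rose (median −0.56), with NOP56 at −1.09 ± 0.07, FBL at −0.73 ± 0.04 and NCL at −0.67 ± 0.04. GNL3 (0.91 ± 0.05) and RRP12 (0.85 ± 0.07) rose. Transcripts known for nonsense-mediated decay or as snoRNA hosts rose in 10 of 22 and fell in 6 (median 0.06, and −0.09 with library totals alone), with ZFAS1 (1.08 ± 0.09) and GAS5 (0.79 ± 0.11) up and SNHG15 (−0.94 ± 0.10) and SNHG16 (−0.83 ± 0.06) down.

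Counted as reads and not per length, the largest gains were those of HSPA5 and HSP90B1, followed by EEF1A1, CALR, FTH1 and EEF2. The 15 largest gains summed to 50133 CPM and the 15 largest losses to −16829 CPM. EEF1A1, a translation elongation factor and the most abundant gene in all 8 libraries, rose from 14210 ± 278 to 19280 ± 278 CPM, a change of only 0.44 ± 0.04. Its partner EEF2 rose by 0.63 ± 0.04 (5038 to 7819 CPM). On the losing side KLK3 and FASN led, followed by GAPDH and TUBB, a tubulin (−1.41 ± 0.05). CKB, brain creatine kinase, held 1193, 1372, 1180 and 1281 CPM in the DMSO libraries and 253, 219.7, 229 and 295 CPM in the tunicamycin libraries. Its groups were apart by a wide gap (−2.33 ± 0.15).

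Among the most raised genes several went from near silence to a clear signal. IL2RB, a subunit of an interleukin receptor, held 0, 0, 0.0612 and 0 CPM with DMSO and 8.39, 5.82, 7.26 and 5.98 CPM with tunicamycin. The DMSO libraries together held a single count of it, so no fold is given. COL16A1, a fibril-associated collagen, held 1.43, 0.537, 0.673 and 1.43 CPM in the DMSO libraries and 90.8, 66.6, 80.3 and 88.1 CPM in the tunicamycin libraries. The DMSO values were all low and the groups were far apart (6.28 ± 0.39). XDH, xanthine dehydrogenase, rose by 4.70 ± 0.16 (0.585 to 15.4 CPM), SERPINA3, a protease inhibitor, by 4.69 ± 0.24 (0.701 to 18.5 CPM) and NTN4, a laminin-like matrix protein, by 5.07 ± 0.26 (0.21 to 7.43 CPM). At the other end OR51E1, a prostate-enriched olfactory receptor, held 13.1, 15.5, 13.3 and 14.3 CPM with DMSO and 0.714, 0.832, 0.726 and 1.33 CPM with tunicamycin (−3.96 ± 0.26). TMEFF2, a membrane protein of prostate and brain, fell from 167 to 21.7 CPM (−2.95 ± 0.24), and UHRF1, which maintains DNA methylation, from 64.6 to 5.84 CPM (−3.47 ± 0.15).

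Genes used as references in expression assays were not level. Of 16 members 5 rose and 10 fell (median −0.28). TFRC and HPRT1 (−1.15 ± 0.07) had the largest falls of the list, and GAPDH and PPIA (−0.59 ± 0.04) also fell. ACTB rose by 0.18 ± 0.05, a call lost with library totals alone, and YWHAZ by 0.40 ± 0.05. NF-kB targets and antigen presentation genes rose in 5 of 22 and fell in 8 (median −0.05), against 34.3% and 34.7% of all genes. HLA-B stood at 0.42 ± 0.06 and NFKB2 at −0.81 ± 0.13.

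Defining markers of several other cell types were at or near 0, while some mesenchymal and neuronal genes were well detected. Of 9 leukocyte markers 2 were tested and 0 rose or fell. Of 3 basal epithelial markers tested 1 rose and 2 fell. KRT15 and TP63 had 0 counts in all 8 libraries, KRT14 fell from 1.29 to 0.228 CPM and LAMB3, a laminin chain, rose from 0.401 to 2.16 CPM. Of 4 fibroblast and mesenchymal genes tested 3 rose and 1 fell. FAP, DCN and COL1A2 had 0 counts in all 8. ACTA2 rose from 7.31 to 40.7 CPM, COL1A1 from 18.6 to 35.6 CPM and VIM, vimentin, from 10 to 15.2 CPM. The member that fell, another collagen gene, had a log2 change of −1.30. The summed TPM share of the fibroblast list was 0.00261% to 0.00298% with DMSO and 0.00576% to 0.00899% with tunicamycin. The part of these genes in the results was not tested. The luminal genes KLK3, TMPRSS2 and HOXB13 were detected in every library. Of 6 neuroendocrine and neuronal genes tested 2 rose, among them TUBB3 (1.54 ± 0.15), and 3 fell, among them SYT4 (−2.47 ± 0.20, 327 to 59.3 CPM). The number that rose was 1 without TM siCtrl replicate 4 and also with library totals alone. The number that fell was 2 without DMSO siCtrl replicate 4.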

How the data were processed

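RNA of 8 LNCaP cultures (RIN at least 9.7, per the labels' protocols) was sequenced with a strand-specific kit. Raw counts per gene were deposited by the authors, who per the submitters' processing notes used TopHat2 2.1.0, featureCounts 1.5.0-p1, DESeq2 1.10.1 and hg19. The annotation and counting settings were not given in the sources used here. Each column used holds 1 library and was assigned by its name.

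From the counts, TMM factors and edgeR 4.0.16 (R 4.3.3) robust quasi-likelihood tests were computed on all 28 libraries, which share the estimate of spread, with the contrast TM siCtrl minus DMSO siCtrl. Genes passed filterByExpr at a minimum count of 10 and a total of 15, and p-values were adjusted over 14314 genes. SE is the log2 change divided by the root of F. TPM used the deposited lengths. In simulated counts for these 14314 genes, some were given a change of 1 or 0.5 on the log2 scale, up or down. Of those that passed the filter in the simulated counts, 98 had a change of 1 and 99 a change of 0.5. Of these changes 92.9% and 70.7% were recovered, and 0.036% of 13878 unchanged genes that passed were called. In the data 69.0% of genes were called, far more than were changed in the simulation. The simulated rates are therefore not error rates of the calls given here. Alternatives were DESeq2 1.42.0, limma-voom (limma 3.58.1), other scalings and filters, a replicate block, and each replicate left out. Same-numbered replicates correlated at 0.03, 0.07, 0.06 and 0.21 in their deviations, and the main fit did not take the numbers as pairs. On the second principal component of log2 CPM, replicates 1 to 4 lay at 8.2, 11.7, −0.85 and −18.7 with DMSO. With tunicamycin they lay at 5.5, 9.1, −1.4 and −13.6, in the same order. A replicate effect shared by the groups was not tested, and a fit with a replicate block is among the alternatives.

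The members and lists were chosen with earlier results of these data known. Named genes are key members of 43 lists, the 25 most raised and 25 most lowered non-overlapping genes whose log2 CPM averaged 1 or more, the 15 largest gains and losses in CPM, and per list the 3 most raised, the 3 most lowered and those against its direction. Outside this rule, and chosen after their values were seen, are ALG12, ALG8, BIRC2, BUB3, CCT4, CCT6A, COL1A2, CREB3, DCN, DERL1, DNAJC25, EIF2A, EIF2AK2, FAP, FICD, GYS1, KDELR1, KRT15, MBTPS1, MBTPS2, MCM7, NCL, NPLOC4, NUCB1, PPP1R15B, PYCRL, QSOX1, RTCB, RUVBL2, SDF2, SEC11A, SEC24B, SEC24C, SEC61A2, SERP1, SHCBP1, SRP14, SRPR, STT3B, TMX2, TMX3, TMX4, TRAM2, TRIM5, UFD1L, XIAP and ZNF17. Start regions were matched to RefSeq (GRCh38.p14) by symbol for 11204 tested genes. Results of some genes are not reported here.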

Additional observations from a re-analysis of the deposited data

Results flagged for a closer look

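At some genes 1 library lay far from the other 3 of its group, by a gap above the critical value of Dixon's test. Chance flags about 1 in 20 groups, and 62 of 1068 groups of named genes were flagged. Of these 20 were DMSO siCtrl replicate 4 and 12 TM siCtrl replicate 4. DMSO siCtrl replicate 1 held the lowest value of its group at POLE2 (11.5 CPM). DMSO siCtrl replicate 2 held the highest value of its group at KRT8 (433 CPM), ENO2 (64.8 CPM) and HLA-B (42.8 CPM). DMSO siCtrl replicate 3 held the highest value of its group at BCL2L11 (32.7 CPM), DGAT2 (32.4 CPM), IL2RB (0.0612 CPM) and OSTC (92.3 CPM) and the lowest value of its group at FOLH1 (479 CPM) and PRDX1 (595 CPM). DMSO siCtrl replicate 4 held the highest value of its group at DDIT3 (33.2 CPM), TRIB3 (142 CPM), SLC38A2 (363 CPM), SESN2 (53.4 CPM), STC2 (171 CPM), CHAC1 (40.3 CPM), PCNA (238 CPM), POLE (63.9 CPM) and COL6A1 (173 CPM) and the lowest value of its group at ATF6 (56.5 CPM), MANF (152 CPM), PDIA3 (534 CPM), LMAN1 (282 CPM), KLK2 (421 CPM) and LAMP3 (0.211 CPM). TM siCtrl replicate 2 held the highest value of its group at YWHAZ (1175 CPM) and TMX1 (63.1 CPM). TM siCtrl replicate 3 held the highest value of its group at NOP56 (129 CPM). TM siCtrl replicate 4 held the highest value of its group at SHMT1 (33.8 CPM), MCM2 (21.4 CPM), MCM5 (14.6 CPM), PRDX1 (338 CPM) and CDKN2B (12.6 CPM) and the lowest value of its group at CDC20 (41.8 CPM). Without DMSO siCtrl replicate 4 the changes of DDIT3, CHAC1 and SESN2 kept their direction, while HSPA8 and HSPB1, which did not pass the test, went to −0.045 and −0.078.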

How the results depend on the processing

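Over 19 alternatives the number of genes that rose stayed at 3760 to 5136 and the number that fell at 4645 to 6262, each within 1.5 times of 4909 and 4974. Leaving out each replicate in turn gave 4757 to 4887 genes that rose, 4773 to 4861 that fell, 1237 to 1265 that rose at least 2-fold and 1057 to 1118 that fell as much. Replicate 4 of both groups was left out as an alternative chosen after seeing the data, with 4757 and 4645. Of 508 called genes that the rule names 463 kept their call under every alternative and 45 lost it somewhere, and 32 of 1634 counts over lists moved by more than 1.5 times. Among the genes that the rule names, 7 had the other sign with library totals alone and a call in either fit. They were SREBF2 (−0.01), CPT1A (−0.133), COX4I1 (−0.012), NDUFA13 (−0.013), UQCRQ (−0.046), PSMC4 (−0.02) and NOLC1 (−0.032). CPT1A, at 0.006 in the main fit, was called only with library totals. With that scaling the medians of the p53, ribosomal protein, decay and snoRNA host, leukocyte and endothelial lists also changed sign, a direct effect of the shift of −0.14. With the replicate block 5097 genes rose and 5169 fell over 28 libraries, and 4939 and 4997 over 8. TM siCtrl replicate 1 correlated better with DMSO siCtrl replicate 2 (0.073) than with replicate 1 (0.0336). TM siCtrl replicate 2 correlated best with DMSO siCtrl replicate 1 (0.119). TM siCtrl replicates 3 and 4 correlated best with the DMSO siCtrl library of the same number (0.064 and 0.21).

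Depth limits genes near 0: with 0 counts in all DMSO libraries a fold is only a lower bound. The floor behind such a bound covers counting error only.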

Other observations

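Outside the lists, 11 genes had 0 counts in all 4 DMSO siCtrl libraries and rose with tunicamycin, and 0 genes went the other way. The filter ran over all 28 libraries, and every group other than DMSO siCtrl received tunicamycin. A gene silent with DMSO could thus pass through any of those groups, so these counts are not a like comparison. CCR2, a chemokine receptor, held 223 counts over the 4 TM siCtrl libraries, at least 75.9-fold higher against a floor of 3 counts over the group. WDFY4 held 109 counts (at least 37.1-fold higher) and PIRT, a regulator of an ion channel, 94 counts (at least 32-fold higher). HNF4A, a liver transcription factor, and SRD5A2, a steroid reductase, were at least 13.9-fold and 13.3-fold higher.

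Of 749 long non-coding RNAs tested 270 rose (36.05%, near the 34.3% of all genes) and 105 fell (14.02%, against 34.7%), with a median of 0.24. This was not particular to them. Of 332 symbols without a match 33.1% rose and 14.2% fell (median 0.23), and of 342 transcribed pseudogenes 29.2% rose and 18.4% fell. The part of low counts in these shares was not tested. Of 12785 protein-coding genes 4410 rose and 4743 fell. Of 19 tested miRNA genes 7 rose and 0 fell, and of 62 snoRNA genes 1 rose and 14 fell. Classes were matched to RefSeq by symbol, and reads of host genes can fall on them.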
